A study of Homo sapiens with 9 samples.

Results

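Before any UV, nascent transcription in an STK19 knockout was set against that of the line it is compared with, using 3 of the series' 9 BrU-seq libraries. The 3 were chosen by their titles: unirradiated WT, unirradiated STK19 knockout (KO), and the unirradiated knockout carrying STK19-TY (rescue), which shows whether a difference between KO and WT is still there when STK19 is put back. All are RPE1 cells, an established human line from retinal pigment epithelium. Every line shares the background written in the labels as RPE1 iCas9 p53/puro-dKO, so WT too lacks p53, and WT means only that STK19 was left intact. The KO line is labelled STK19-KO and the rescue line STK19-KO+STK19-TY. The labels do not give the number of clones behind a line, the promoter of the transgene or its level, and each line is represented by 1 library per condition. The 30 min pulse was with 2 mM bromouridine (BrU). The other 6 libraries are the same 3 lines after 12 J/m2 of UV-C, labelled from 2.5 h to 3 h or from 15.5 h to 16 h, and serve here as separate libraries in which a difference between lines can be looked for again.

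In BrU-seq, living cells build bromouridine into the RNA they make during a short pulse, which an antibody then captures for sequencing, so the signal reports transcription in progress and not the store of mature RNA. RNA polymerase II slows or pauses shortly after a start site and then elongates through the gene body, and many human promoters also fire in the antisense direction, upstream of the start. STK19 is known as a factor of transcription-coupled repair, the pathway in which polymerase stalled at a DNA lesion calls in repair. The unirradiated comparison asks whether transcription already differed before lesions were made.

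Each library file gives signal in 200-bp bins on either side of a transcription start site (TSS), up to 100 kb away, with 1 line per transcript identifier. Of 9805 identifiers in any of the 9 files, 9523 were in an unirradiated file and 8526 in all 3 of those. The level of an identifier is its mean signal per bin from 0 to 25 kb downstream, and 3544 identifiers, or 41.6% of the 8526, had a mean level of at least 1 over the 3 libraries. None of the identifiers could be paired with a gene name here. STK19, the transcription-coupled repair genes, the p53 targets and the markers of the cell type were therefore not analysed, and neither the knockout nor the cell type could be checked against its own gene. The KO library was the deepest of the 3: its smallest signal step was 0.647, against 1.35 in WT and 1.36 in rescue, which is 2.09 times the depth of WT. A level of 1 was made of 193 steps in KO, 92.4 in WT and 91.9 in rescue. On the authors' scaling, the summed signal of KO was 102% and of rescue 101% of that in WT. The labels do not state how the signal was scaled. The values are therefore taken as relative, and a change in total transcription cannot be read from them. With 1 library per line and condition, no difference between unirradiated lines has a replicate check and no p-value is given for one.

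Across the genome, KO transcribed most identifiers at about the WT level, with a minority at 2-fold or more in either direction. The median log2 ratio of KO to WT was -0.04, the middle 50% of identifiers lay between -0.43 and 0.37, and the median absolute deviation was 0.40. Ratios are on the log2(level + 0.1) scale, which understates changes of low identifiers. KO was at least 2-fold above WT at 236 identifiers, 6.66% of those measured, and at least 2-fold below at 221, or 6.24%, making 457 or 12.9% in all. With the level taken over the first 10 kb the balance turned, to 272 above and 344 below, and over the first 100 kb it was 193 and 128. Past 4-fold there were 32 above (0.903%) and 14 below (0.395%). The level filter used the mean of WT, KO and rescue. Identifiers high in both KO and rescue thus passed it more easily than those high in WT alone. The values nearest the 2-fold line were 1.0005 just inside and 0.999 just outside among higher identifiers, and -1.004 and -0.996 among lower ones.

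The spread between KO and WT was widest at the strongest signal and narrowest in the middle band. Among the 579 identifiers with a level of 10 or more, the median absolute deviation of the log2 ratio was 0.47. Of these, 55 were 2-fold higher and 51 lower, together 18.3%. Among the 1108 identifiers with levels from 4 to 10 the deviation was 0.36, with 53 higher and 57 lower, together 9.93%. Among the 1857 identifiers with levels from 1 to 4 it was 0.40, with 128 higher and 113 lower, together 13.0%. Rescue and KO were closer to each other in the same band of strong signal, with a median absolute deviation of 0.18 and 3 of the 579 past 2-fold.

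The rescue line resembled KO and not WT. Rescue was at least 2-fold above WT at 203 identifiers (5.73%) and below at 329 (9.28%), together 532 or 15.0%, whereas rescue was at least 2-fold above KO at 8 (0.226%) and below at 17 (0.480%), together 25 or 0.705%. The median absolute deviation was 0.42 for rescue over WT and 0.19 for rescue over KO. The direction of these counts leaned on the scaling. With trimmed-mean factors (1.04 for WT, 1.02 for KO, 0.947 for rescue) rescue was above WT at 274 and below at 247, and above KO at 17 and below at 12. The share of higher identifiers thereby moved from 38.2% to 52.6% and from 32% to 58.6%. The counts for KO over WT were 259 and 205 with the same factors. KO over WT and rescue over WT share the WT library, so a value particular to that library would appear in both.

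**Figure D1:**
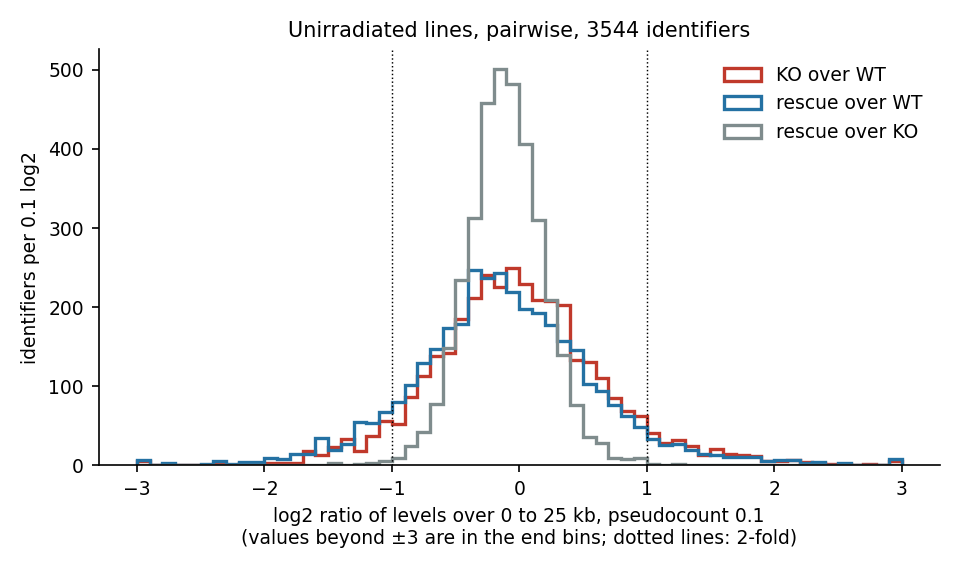
Number of identifiers (y axis) per 0.1 of log2 ratio (x axis) for each pair of unirradiated libraries, over 3544 identifiers, with dotted lines at 2-fold and end bins that hold values beyond 3. The rescue over KO ratios form the narrow peak, with 25 identifiers past 2-fold, while KO over WT and rescue over WT are broad and nearly overlie each other, with 457 and 532.

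For most identifiers that separated KO from WT, re-expression of STK19 went with a KO-like level. Over all 3544 identifiers, rescue was nearer to KO than to WT at 2565, or 72.4%. Of the 236 higher in KO, rescue was nearer to KO than to WT on the log2 scale at 227, or 96.2%, and nearer to WT at 9. It was itself past 2-fold at 167, or 70.8%, and within 0.5 log2 of WT at 8. Of the 221 lower in KO, rescue was nearer to KO at 215, or 97.3%, and nearer to WT at 6, past 2-fold at 180, or 81.4%, and within 0.5 log2 of WT at 3. The median KO over WT log2 ratio was 1.36 in the higher set and -1.30 in the lower set, and these values chose the sets. The median ratio of rescue to WT was 1.28 and -1.35. It rests on the same WT library that chose the sets, so part of it follows from the choice. Past 4-fold, rescue was nearer to KO at 31 of 32 higher identifiers and at 14 of 14 lower ones. The level filter used a mean that includes rescue, so identifiers high in both KO and rescue entered the higher sets more easily. The counts of rescue nearer to KO in the higher sets thus follow in part from the filter.

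Rescue and KO differed by 2-fold at few identifiers, so their relation to WT rests on small numbers. At the 8 where rescue stood at least 2-fold above KO, KO lay at least 2-fold below WT at 1, where 6.24% of all identifiers did, and rescue lay nearer to WT than KO did at 3. At the 17 where rescue stood at least 2-fold below KO, KO lay at least 2-fold above WT at 3, where 6.66% of all did, and rescue lay nearer to WT than KO did at 4. Median levels of the 8 were 3.17 in WT, 1.18 in KO and 5.97 in the rescue line. Those of the 17 were 2.83 in WT, 2.04 in KO and 0.783 in the rescue line.

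The irradiated libraries, which share none with the unirradiated comparison, gave the same direction at most of these identifiers 3 h after UV. KO was above WT at 222 of the 236 higher identifiers, or 94.1%, where 34.9% of all 3544 were above. It was below WT at 212 of the 221 lower ones, or 95.9%, where 65.1% of all were below. KO over WT was past 2-fold at 104 of the 236, or 44.1%, against 7.56% of all identifiers in that direction. It was past 2-fold at 122 of the 221, or 55.2%, against 11.3% of all.

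At 16 h the higher set kept its direction more often than the lower set. KO was above WT at 173 of the 236 higher identifiers, or 73.3%, against 50.5% of all, and past 2-fold at 65, or 27.5%, against 13.4%. KO was below WT at 104 of the 221 lower ones, or 47.1%, which is near the 49.5% of all identifiers, and past 2-fold at 38, or 17.2%, against 10.1%. Rescue was above WT at 209 of the 236 at 3 h (88.6%, against 30.7% of all) and at 189 at 16 h (80.1%, against 60.3%). It was below WT at 216 of the 221 at 3 h (97.7%, against 69.3%) and at 124 at 16 h (56.1%, against 39.7%). The difference between times was not tested.

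The levels of the 2 sets stand beside the medians of all 3544 identifiers, which were 3.898 in WT and 3.79 in KO before UV, 5.198 and 4.26 at 3 h, and 4.91 and 4.79 at 16 h. Before UV, the higher set had a median level of 1.62 in WT, 4.84 in KO and 4.38 in the rescue line. At 3 h these were 2.06, 4.26 and 3.96, and at 16 h they were 2.32, 2.93 and 3.79. The lines lay closer together at 16 h than before UV. The lower set had median levels of 6.65 in WT, 2.66 in KO and 2.51 in the rescue line before UV, then 8.47, 3.98 and 2.93 at 3 h. At 16 h they were 6.59, 5.51 and 5.25, so the lines lay closer together there too. Because the sets were chosen for their unirradiated KO and WT levels, lines that lie closer in other libraries follow in part from the choice.

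The lines were tested in the 6 irradiated libraries, which the choice of identifiers did not use, with condition as a block and 2 residual degrees of freedom. There limma called 54 of 3544 identifiers different between KO and WT at a Benjamini-Hochberg adjusted p under 0.05, or 1.52%, of which 34 (0.959%) were higher and 20 (0.564%) lower in KO. Unadjusted p was under 0.05 at 376. The calls numbered 195 when the unirradiated libraries entered the same fit, 3 without the block and 0 in a limma fit of 7936 identifiers with no level filter, where unadjusted p was under 0.05 at 710. Of the 236 identifiers higher in KO before UV, 20 were called higher and 0 lower. Of the 221 lower before UV, 16 were called lower and 1 higher. The conditions stand in for repeats in this fit. It therefore measures how constant a line difference was over 3 h and 16 h, not the spread between cultures or clones. All 6 libraries were irradiated, so the fit cannot separate a line difference present before UV from a different response to UV.

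The 4 identifiers named here are the 2 highest and 2 lowest by KO over WT among 2124 well-measured ones, and their unirradiated values are a description. The identifier uc001ivi.3 had a level of 0.769 in WT, 12.6 in KO and 11.1 in the rescue line before UV. KO was 14.6-fold above WT, and rescue stood at 0.878 of KO. At 3 h the levels were 1.26 in WT, 5.54 in KO and 3.32 in the rescue line, and at 16 h 1.51, 4.75 and 3.74. In every condition the WT library was the lowest of the 3, and no WT value overlapped those of KO or rescue. In the irradiated libraries KO was above WT by 1.82 (SE 0.49) on the log2 scale, with a limma Benjamini-Hochberg adjusted p of 0.0179.

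The identifier uc001xrn.4 had a level of 8.30 in WT, 59.0 in KO and 39.4 in the rescue line before UV, a 7.04-fold difference between KO and WT. Its levels at 3 h were 13.3, 24.1 and 21.3, and at 16 h 4.93, 25.4 and 15.2. WT was again lowest in each condition and KO highest. The irradiated difference was 1.598 (SE 0.43) on the log2 scale, with a limma Benjamini-Hochberg adjusted p of 0.0187. Its signal lay almost wholly within 25 kb: 25 to 100 kb downstream gave 0 in WT, 0.00517 in KO and 0.0109 in the rescue line per bin.

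The identifier uc003xks.4 had a level of 27.3 in WT, 4.62 in KO and 5.04 in the rescue line before UV, so that KO stood at 0.172 of WT. At 3 h WT reached 85.1, with 27.0 in KO and 25.9 in the rescue line. At 16 h the lines lay together, at 9.15, 10.7 and 8.53. This identifier was low in both knockout-derived lines before UV and at 3 h but not at 16 h, and over both irradiated conditions limma gave a difference of -0.72 (SE 0.44) with a Benjamini-Hochberg adjusted p of 0.596. Its near share, defined with the long spans below, was 52.8% in WT, 28.8% in KO and 33.5% in the rescue line, and the signal beyond 25 kb was 8.15 in WT, 3.81 in KO and 3.33 in the rescue line per bin.

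The identifier uc004ala.5 had a level of 9.09 in WT, 1.73 in KO and 0.979 in the rescue line before UV, and 26.2, 8.59 and 9.17 at 3 h. At 16 h the levels were 8.27, 3.29 and 5.39. WT was the highest of the 3 in every condition. The irradiated difference was -1.45 (SE 0.42) on the log2 scale, with a limma Benjamini-Hochberg adjusted p of 0.0369. A neighbouring identifier had a shifted copy of its profile and was passed over.

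**Figure D2:**
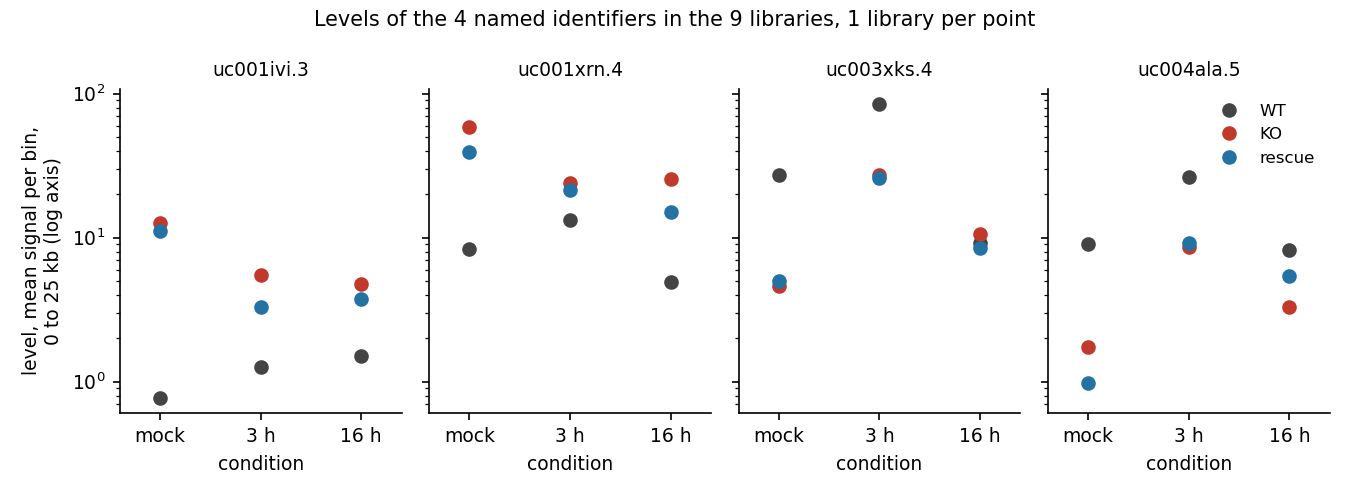
Level of the 4 named identifiers (log y axis, mean signal per bin from 0 to 25 kb) in each of 9 libraries, by condition (x axis) and line (colour), 1 library per point. WT is the lowest point in all 3 conditions for uc001ivi.3 and uc001xrn.4 and the highest for uc004ala.5, whereas the 3 lines lie together at 16 h for uc003xks.4, between 8.53 and 10.7.

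A handful of identifiers were near silent in the knockout-derived lines. A level under 0.05 in KO with a level of at least 1 in WT was found at 5 of 8526 identifiers (0.0586%), which lay in 5 separate places of the file. Their WT levels were between 1.01 and 4.69, and the highest KO level was 0.0466, with 1 identifier at 0. Rescue was under 0.05 at 4 of the 5 and at most 0.0544. After UV the WT libraries gave 0.116 to 4.57, and the highest value in any KO or rescue library was 0.0781. At each of the 5, both irradiated WT libraries stood above every irradiated KO and rescue library. The reverse, under 0.05 in WT with at least 1 in KO, was found at 0 identifiers in all 3 files. Identifiers absent from the WT library could not enter this count. Of those present only in KO and rescue, 1 reached a level of 1, at 4.85.

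Differences between KO and WT were also gathered in 2 stretches of neighbouring identifiers. The order of identifiers in the files carries position: 795 of 3543 adjacent pairs (22.4%) had shifted copies of the same profile, with a correlation of 0.9 or more, against 0 of 3494 pairs that stood 50 apart. Identifiers are therefore not independent, and the 3544 fell into 2746 groups without such sharing; the 236 higher ones fell into 230 groups and the 221 lower ones into 203. A running median over 31 consecutive identifiers, centred on the median of all, stayed within 0.25 log2 of 0 for 87.1% of 3514 windows. It passed 0.5 in 1 higher stretch of 26 identifiers and 1 lower stretch of 28. The window and threshold were chosen after the values were seen.

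In the higher stretch, which includes uc001ivi.3, median levels were 1.40 in WT, 2.80 in KO and 2.16 in the rescue line. KO was above WT at 25 of its 26 identifiers and past 2-fold at 13, with a median log2 ratio of 1.02. Those values chose the stretch. In the irradiated libraries, which did not, KO was above WT at 22 of 26 at 3 h (median 0.63, against -0.25 for all identifiers) and at 23 at 16 h (0.80, against 0.01). Rescue was above WT at 21, 18 and 25 of 26 in the 3 conditions, with medians of 0.77, 0.32 and 0.92, against -0.14, -0.36 and 0.15 for all identifiers. Of all identifiers, KO was above WT at 47.3% before UV, 34.9% at 3 h and 50.5% at 16 h. For rescue these shares were 41.2%, 30.7% and 60.3%. The 31 identifiers before and after the stretch had KO over WT medians of -0.05 and -0.17.

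In the lower stretch, median levels were 5.39 in WT, 2.64 in KO and 2.399 in the rescue line. KO was below WT at 25 of its 28 identifiers, past 2-fold at 14, and past 2-fold the other way at 1, with a median log2 ratio of -1.002. At 3 h KO was below WT at 22 of 28 (median -1.16) and at 16 h at 26 (-1.37). Of all identifiers, 65.1% were below WT in KO at 3 h and 49.5% at 16 h. Rescue was below WT at 24, 25 and 26 of 28, with medians of -1.11, -1.42 and -1.20, against the same medians of all. At 3 h, 69.3% of all identifiers were below WT in rescue, and at 16 h 39.7%. The 31 identifiers on either side had medians of -0.16 and -0.09. limma called 9 of the 28 lower and 0 higher in the irradiated libraries at a Benjamini-Hochberg adjusted p under 0.05, and in the higher stretch 3 of 26 higher and 0 lower. Over all identifiers 0.564% were called lower and 0.959% higher.

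Rescue and KO barely differed within either stretch, with median log2 ratios of -0.17 and -0.15 against -0.11 for all identifiers. Most differences between KO and WT lay elsewhere, since 429 of the 3490 identifiers outside both stretches were past 2-fold, 222 higher and 207 lower. DNA was not analysed here, and the number of gene copies in each line was not analysed here, so copy number and transcription rate cannot be told apart in these stretches.

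**Figure D3:**
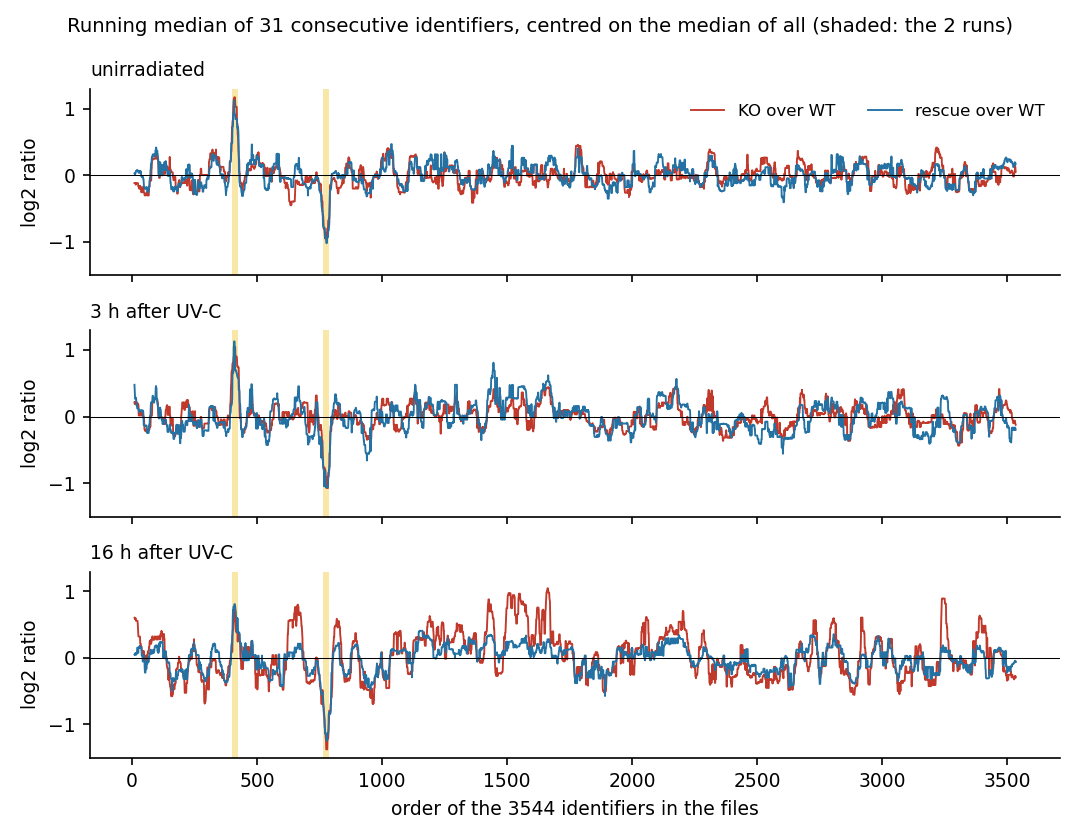
Running median of the log2 ratio to WT over 31 consecutive identifiers (y axis), centred on the median of all, along the order of 3544 identifiers in the files (x axis), for KO and rescue before UV, at 3 h and at 16 h. Both lines leave 0 together at the 2 shaded stretches of 26 and 28 identifiers in all 3 conditions; the KO line at 16 h has further excursions that are not seen before UV.

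Around the start site, KO had less signal than WT close to the TSS and more of it further in. The authors' averages show this for genes of at least 25, 50 and 100 kb, numbering 1473, 787 and 308. A gene of 100 kb is in all 3 classes. In the first 1 kb KO stood at 0.754, 0.813 and 0.931 of WT, and in the 1 kb upstream at 0.720, 0.749 and 0.807. From 1 to 5 kb the ratio was 0.990, 1.05 and 1.19, and from 10 to 25 kb it was 1.21, 1.25 and 1.31. Signal of the 308 long genes remained above WT further along, with ratios of 1.31 from 25 to 50 kb, 1.32 from 50 to 75 kb and 1.23 from 75 to 100 kb. Over the 20 windows of 5 kb, KO was above WT in 19, 18 and 20 of the 3 classes. The 25 and 50 kb classes include genes shorter than 100 kb, so their far windows can lie past the gene end. Short stretches of high signal also interrupted the far profiles of these classes. In the 50 kb class the bin at 66000 bp held 8.85 for WT and 7.07 for KO, against 2.16 and 2.72 at 66200 bp. At 99600 bp the same class held 7.16 for WT and 3.88 for KO. In the 25 kb class the bin at 75200 bp held 3.29 for WT and 6.53 for KO. How many genes carried such stretches was not tested. The averages have no error here, because they are the authors' means with no spread.

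Rescue had a profile close to that of KO in the averages, apart from the upstream side. Its ratio to WT was 0.767, 0.818 and 0.928 in the first 1 kb and 1.22, 1.25 and 1.34 from 10 to 25 kb. In the 1 kb upstream it was 0.586, 0.60 and 0.650, lower than KO in each class. The peak after the start was flatter in both: the first 1 kb over the next 4 kb was 1.47, 1.496 and 1.597 in WT, 1.12, 1.15 and 1.25 in KO and 1.23, 1.27 and 1.36 in rescue. In the 25 kb class the bin with the most signal held 20.05 in WT, at 0.6 kb, 14.6 in KO, at 1.2 kb, and 14.8 in rescue, at 0.4 kb.

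**Figure D4:**
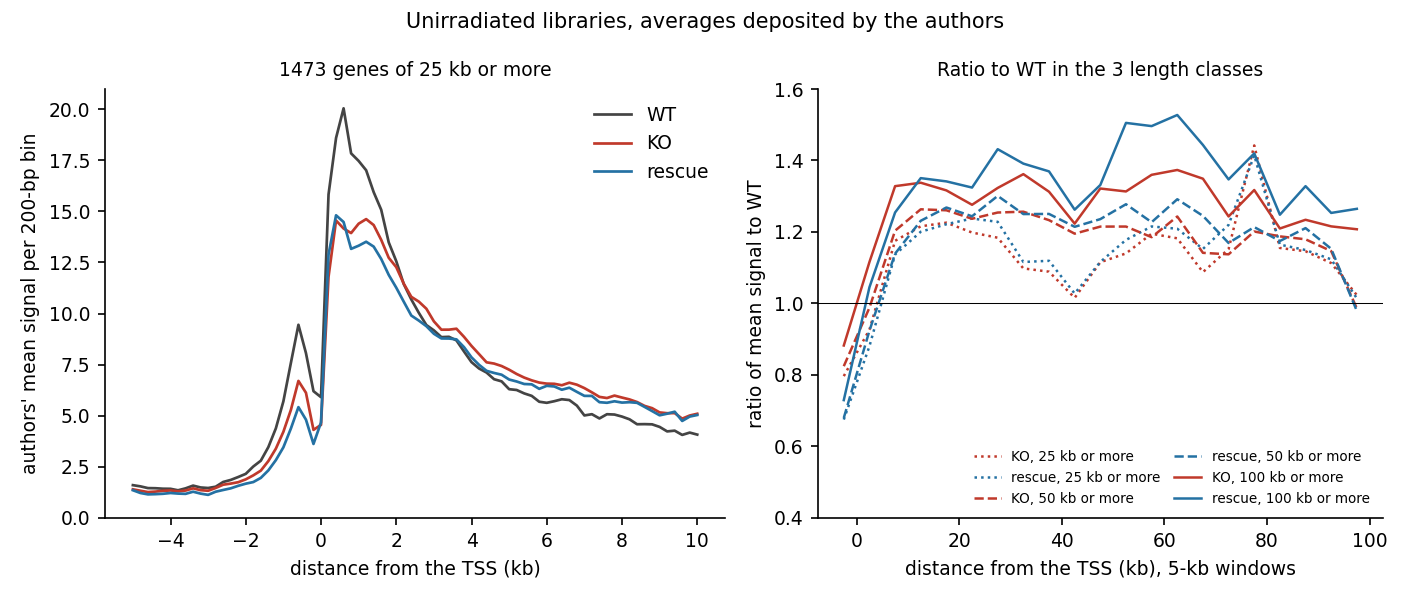
Left, the authors' mean signal per 200-bp bin (y axis) by distance from the TSS (x axis) for 1473 genes of 25 kb or more in the 3 unirradiated libraries; right, the ratio to WT in 5-kb windows (y axis) for the 3 length classes, KO and rescue. WT has the tallest peak after the start, 20.05 against 14.6 in KO and 14.8 in the rescue line, and beyond 5 kb both knockout-derived lines lie above WT in nearly every window.

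Relative to the next 4 kb, KO also had less signal in the first 1 kb than WT at most single identifiers. The start ratio is the log2 ratio of signal in the first 1 kb to that from 1 to 5 kb, with a pseudocount of 1, and 3171 identifiers had a mean signal of at least 1 in both regions. Its median was 0.30 in WT, 0.04 in KO and 0.16 in the rescue line. KO was below WT at 2264 identifiers, or 71.4%, with a median difference of -0.31, and by 2-fold or more at 360 (11.4%), against 75 (2.37%) above. The median difference was -0.32 for levels from 1 to 4, -0.31 from 4 to 10 and -0.28 from 10 up. On the authors' scaling, the median log2 ratio of KO to WT was -0.42 in the first 1 kb and -0.09 from 1 to 5 kb. In the averages of the 308 genes of 100 kb or more, KO stood at 0.931 and 1.19 of WT in these regions.

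The start ratio of the rescue line lay between those of the other lines. Rescue was below WT at 61.1% of identifiers, with a median difference of -0.20, past 2-fold below at 340 (10.7%) and above at 160 (5.05%). Against KO its median difference was 0.13. On the authors' scaling its median log2 ratio to WT was -0.45 in the first 1 kb and -0.26 from 1 to 5 kb. Such ratios between libraries move with the scaling. The start ratio differences of KO and rescue from WT rest on the same WT library. Its median start ratio of 0.30 compares with -0.10 in WT at 3 h and 0.02 in WT at 16 h. After UV the sign of KO minus WT was the opposite, with medians of 0.25 at 3 h and 0.41 at 16 h.

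Upstream of the start, where antisense transcription from the promoter lies, the knockout-derived lines also had less signal. At 2211 identifiers with a quiet far upstream, the mean signal per bin in the 1 kb before the TSS was set against the identifier's level. As a percentage of the level, its median was 49.0% in WT, 37.6% in KO and 27.5% in the rescue line. These percentages compare signal per bin and are not shares of the total signal. Pooled over identifiers the values were 88.3%, 62.4% and 54.4%. KO was lower than WT at 1235 of the 2211 and higher at 729, and rescue was lower than WT at 1339 and higher at 525. From 5 to 1 kb upstream the lines were closer, with medians of 7.44%, 7.89% and 5.83% and pooled values of 31.9%, 29.0% and 27.5%. From 25 to 5 kb upstream the medians were 2.63%, 3.18% and 2.90% and the pooled values 23.4%, 20.6% and 21.2%. Beyond 1 kb upstream, median and pooled value thus differed in direction between KO and WT. The sources used here do not say if strand was used in making the signal, and antisense signal and signal from the tail of a neighbour cannot be told apart.

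Along long transcribed spans, KO had slightly more of its signal far from the start than WT. The near share relates the signal of the first 25 kb, in percent, to that of the first 100 kb, and was measured at 369 identifiers with continuous signal over 100 kb. Its median was 32.4% in WT, 30.2% in KO and 29.2% in the rescue line. KO was lower than WT at 227 identifiers and higher at 142, with a median difference of -1.77 points and a middle 50% from -6.11 to 1.76. A difference of 10 points or more was seen at 44 identifiers lower in KO (11.9%) and 12 higher (3.25%). Rescue was lower than WT at 238, with a median difference of -2.87 points, and lower than KO at 220, with -0.67.

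In 5-kb windows of these spans, KO was near WT over the first 5 kb and above it beyond. The mean signal from 0 to 5 kb was 10.7 in WT, 9.98 in KO and 9.28 in the rescue line, and KO was above WT at 179 of 369. From 10 to 15 kb the means were 4.62, 5.77 and 5.59, with KO above WT at 250 and a median log2 ratio of 0.34. From 95 to 100 kb they were 4.75, 6.27 and 6.38, with KO above WT at 257 and a median of 0.27. The median ratio in the last window was thus similar to that soon after the start. The near share difference was smaller among stronger spans, at -0.30 points in the part of the set with the higher level, and was -0.44 points when the near window was 50 kb.

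**Figure D5:**
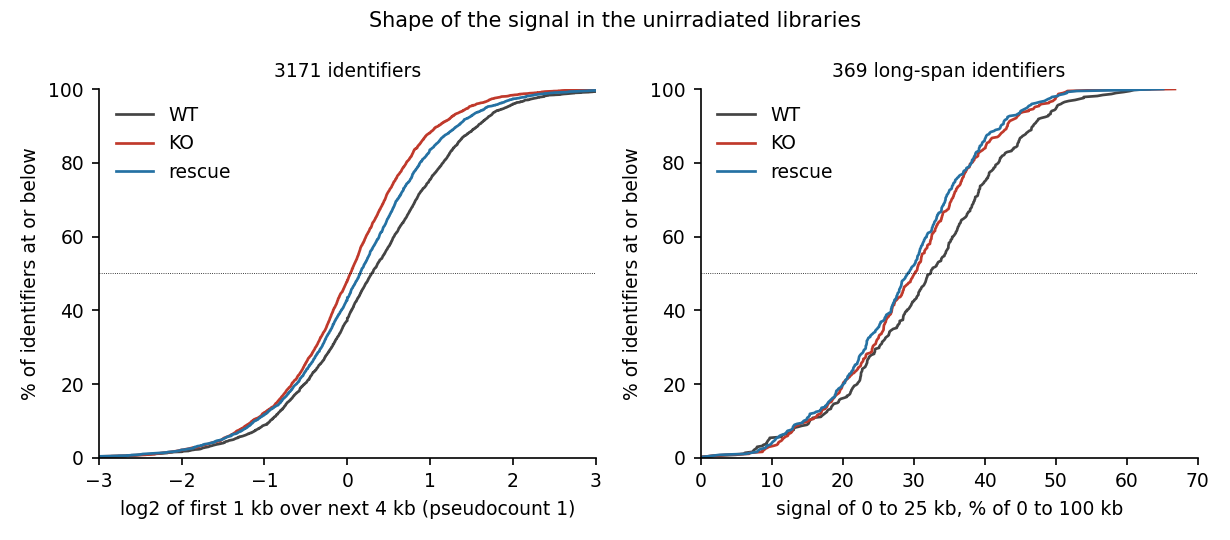
Cumulative percentage of identifiers (y axis) by start ratio (left x axis, log2 of the first 1 kb over the next 4 kb, 3171 identifiers) and by near share (right x axis, percent, 369 long-span identifiers) in the 3 unirradiated libraries. The KO curve lies left of WT in both panels, with medians of 0.04 against 0.30 and 30.2% against 32.4%; rescue lies between them for the start ratio and at 29.2% for the near share.

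The depth of the KO library, 2.09 times that of WT, moves with every KO over WT value before UV, and its part in the start ratio and in the flank was not tested. By the same measure, the smallest signal step, the rescue library had 0.995 times the depth of WT. The start ratio, flank and near share of KO and rescue were set against the same WT library.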

How the data were processed

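BrU-seq signal of 3 unirradiated and 6 irradiated RPE1 libraries was used, with groups from the titles. Per the file headers, the deposited signal is a value per 200-bp bin around each TSS, in 1001 columns. Whole multiples of the smallest step of a library made up 100% of its values. In the unirradiated libraries 73.1% to 80.3% of isolated stretches of signal spanned 2 or 3 bins, as coverage by a fragment would, and no count model was used. The tools named, without roles, in the submitters' processing notes are R 4.0.5, HOMER 4.8.2, FastQC 0.11.9, STAR 2.7.7a and Trim Galore 0.6.5, with the builds GRCh38 and hg38. Of the identifiers, 0 matched the reference table given here, so no gene name, position or sequence is given, and a level may include neighbouring genes. The labels differ on whether labelling began or ended at 3 h and 16 h; a start at 2.5 h or 15.5 h is used here.

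Levels, near shares, start ratios and flanks were computed with Python 3.11.15, numpy 2.4.6 and pandas 2.3.3. The test was limma 3.58.1 in R 4.3.3 (lmFit, eBayes with trend) on log2(level + 0.1), checked on simulated data. Long-span identifiers had a mean of at least 0.5 in each 5-kb window to 100 kb, every window under 6 times the median one, and under 0.5 times that median from 5 to 1 kb upstream. A quiet far upstream was a mean under 0.5 times the level from 100 to 25 kb upstream. Named identifiers were the 2 highest and 2 lowest by KO over WT with a mean level of at least 1 and in its upper 60%, at least 0.5 in each unirradiated library, and no shifted copy of one already named. The members, sets and measures were chosen with earlier results of these data known.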

Additional observations from a re-analysis of the deposited data

Results flagged for a closer look

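The start ratio differed between KO and WT in opposite directions before and after UV. Its median log2 difference, KO minus WT, was -0.31 before UV, 0.25 at 3 h and 0.41 at 16 h. The near share did so between the unirradiated and the 16 h libraries, with a median difference of -1.77 points before UV and 9.53 points at 16 h. At 3 h it was -11.9 points, with KO lower at 298 of 369 identifiers. Each value sets 1 library against 1 library, and the change between conditions was not tested. Relative to the unirradiated WT library, depth was 1.78 and 0.277 for WT and KO at 3 h, and 3.63 and 0.717 at 16 h; its part in these values was not tested.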

How the results depend on the processing

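The values are taken as relative, because the labels do not state how the authors scaled the signal. Over the 9 libraries, summed signal ran from 98.0% to 112% of that in unirradiated WT. Identifiers overlap. No paired analysis was possible because the labels pair no replicates and each line and condition held 1 library; the block in the limma fits is the condition. The count of identifiers past 2-fold depended mainly on threshold and filter. For KO over WT it was 457, and it became 927 with no filter (of 8526), 216 at a level of at least 4, 1225 at 1.5-fold and 46 at 4-fold; the balance of higher to lower moved with the settings, at 272 to 344 over the first 10 kb, 193 to 128 over the first 100 kb, 585 to 640 at 1.5-fold and 108 to 108 at a level of at least 4. For rescue over WT (532) it was 1102, 229, 1308 and 62 under the same settings, and 328 over the first 100 kb. For rescue over KO (25) it was 155, 6, 251 and 1, with 8 at a pseudocount of 0.5, 84 over the first 10 kb and 7 over the first 100 kb. KO over WT stayed above rescue over KO in number under each of these settings. The near share difference of -1.77 points was -0.44 with a 50 kb near window and -0.30 in the part of the long-span set with the higher level. The 54 limma calls in the irradiated libraries were 195 with all 9 libraries, 29 without the rescue line, 3 without the condition block, 83 with trimmed-mean scaling and 26 over the first 10 kb. They were 0 with no filter, where unadjusted p was under 0.05 at 710 of 7936. The cause of these shifts was not tested. With the first 600 bp as the start region, the median start ratio difference from WT was -0.23 for KO and -0.08 for rescue. With the first 1 kb it was -0.31 and -0.20. The start ratio kept its direction under 4 alternatives and each of the 4 named identifiers under 4. The pooled flank from 5 to 1 kb upstream did so under 2 and that of the 1 kb upstream under 1 (-25.9 and -25.5 points). The 2 stretches held 54 identifiers. They held 57 with a window of 21 (54 shared), 49 with a window of 41 (46 shared) and 49 with 1 identifier per shared profile (43 shared). A threshold of 0.4 gave 69 in 3 stretches (54 shared). In these alternatives, stretches of fewer than 10 identifiers were left out of the count.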

Other observations

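The 10 identifiers with the highest mean level took a larger share of the summed level in the knockout-derived lines before UV, at 9.72% in KO and 9.74% in rescue against 5.30% in WT. Their choice used a mean in which KO and rescue are 2 of 3 libraries, which favours a larger share there. Identifiers missing from a file were nearly all of low level. There were 211 in the KO and rescue files but not in that of WT, of which 1 reached a level of 1, at 4.85. A further 163 were in the WT file alone, with a highest level of 0.238, and 193 in the KO file alone, with a highest level of 0.0362.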
